A study of Mus musculus with 6 samples.

Results

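The genes described here are 10 markers of the integrated stress response and the unfolded protein response, measured in cortical thymic epithelial cells (cTECs) that lack Psmb11 and in wild-type cTECs. They were taken as a list of mouse symbols (Atf4, Ddit3, Trib3, Chac1, Asns, Sesn2, Ppp1r15a, Xbp1, Herpud1 and Atf6), a list drawn up with earlier results of these data known and defined by symbol rather than by a measured value. All 10 were found among the 50600 gene identifiers in the count tables. Of these, 9 were among the 16938 genes tested, and Chac1 did not pass the filter on low counts.

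Polyadenylated RNA was sequenced with a stranded kit in 6 libraries of primary cTECs, which line the thymic cortex and present self peptides to developing T cells. The 3 KO libraries, replicates A, B and C, came from Psmb11-/- mice labelled B6.B6CB-Psmb11tm1Smta. The 3 WT libraries, also replicates A, B and C, came from Psmb11+/+ mice given under the same strain name. Mice of both genotypes were 8 to 10 weeks old and the tissue was thymus. Psmb11 encodes β5t, a catalytic subunit of the proteasome form found in cTECs, and the comparison asks how the RNA of these cells differs without it. The labels do not say how the cells were sorted, whether animals were pooled, or whether the replicates of a genotype were separate mice, so p-values measure only the spread between these samples. Medullary epithelial cells and thymocytes, which the series design also names, were not analysed here.

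Cells answer misfolded protein in the endoplasmic reticulum (ER) through the sensors PERK, IRE1 and ATF6. PERK, like the amino acid sensor GCN2 and other kinases, phosphorylates eIF2α, which slows translation in general while the Atf4 mRNA is translated more, and ATF4 then raises the transcription of genes for amino acid supply, for feedback and, under lasting stress, for cell death. IRE1 splices the Xbp1 mRNA and ATF6 is cut from the membrane to become a transcription factor, and both raise ER chaperones and the machinery that disposes of misfolded ER protein. Counts per gene measure neither the translation of Atf4, the splicing of Xbp1 nor the cleavage of ATF6, so the levels of their target genes are given beside them.

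Each library held 34265035 to 39224292 counts in genes. Psmb11 had 67, 36 and 41 counts in KO libraries A, B and C, against 8293, 9297 and 10027 in WT libraries A, B and C (log2 fold change -7.56, edgeR quasi-likelihood test, adjusted p = 1.65e-11), which fits the labels. The summed level of 17 cTEC markers was 7270 to 8040 CPM (gene counts scaled to a common library size) in KO and 11000 to 11200 CPM in WT. Of those markers, 2 were called higher and 12 lower in KO, which is 82.4% against 23.6% of all tested genes. Psmb11 itself is among the 17 markers and among the 12, at a mean of 1.33 CPM in KO and 252 CPM in WT. Its part in the count and in the sum was fixed by the genotype. Over all 16938 tested genes 12.5% were called higher and 11.1% lower. Markers of other cells were present in both genotypes and most lists were higher in KO. Of 12 medullary epithelial markers 7 were called higher, or 58.3% (summed 6160 to 6520 CPM in KO and 4840 to 5410 CPM in WT). So were 7 of 10 tuft cell markers, or 70.0% (173 to 223 CPM in KO and 110 to 120 CPM in WT). Likewise 8 of 13 markers of dendritic cells and macrophages were called higher, or 61.5% (142 to 152 CPM in KO and 101 to 108 CPM in WT, with Xcr1 and Siglech at 0 in some libraries). Sirpa, at a mean of 77.9 CPM for KO libraries and 68.7 CPM for WT libraries, made up the largest part of that sum. Csf1r, Tyrobp, Fcer1g, C1qa and C1qb were not called, with log2 fold changes of 0.43 to 1.02. Of 12 fibroblast and pericyte markers 10 were called higher, or 83.3% (1410 to 1510 CPM in KO and 957 to 1090 CPM in WT). Of 15 thymocyte markers 1 was called higher, or 6.67% (64.7 to 119 CPM in KO and 62.1 to 71.6 CPM in WT, highest in KO library A). That gene, Thy1, is also among the called fibroblast and pericyte markers. The 2 genes of the fibroblast and pericyte list not called were Pdgfra (log2 fold change 0.04) and Pdgfrb (0.09). Dcn, at a mean of 777 CPM for KO libraries and 607 CPM for WT libraries, made up the largest part of that list's summed level. Of 9 endothelial markers 0 were called (24.8 to 64.2 CPM in KO and 20.3 to 47.7 CPM in WT). None of these lists had a called gene in the lower direction other than the cTEC list. In bulk libraries fewer cells of a type and less RNA per cell cannot be told apart, and the part of other cells in the results that follow was not tested.

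The members that were called went in both directions. Of the 9 tested, 1 (Ppp1r15a) was called higher in KO, 1 (Asns) was called lower and 7 were not called, with 0.05 as the limit for the p-value adjusted by Benjamini and Hochberg's method across the 16938 genes. That is 22.2% of the members, near the 23.6% of all tested genes that were called in this comparison, of which 12.5% were higher in KO and 11.1% lower. The levels of 2 of the 9 did not overlap between the genotypes, against 39.3% of all tested genes. The median log2 fold change of the members was 0.016 and that of all tested genes -0.001. Without the multiple-test correction 3 members had p below 0.05, the third being Xbp1.

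**Figure D1:**
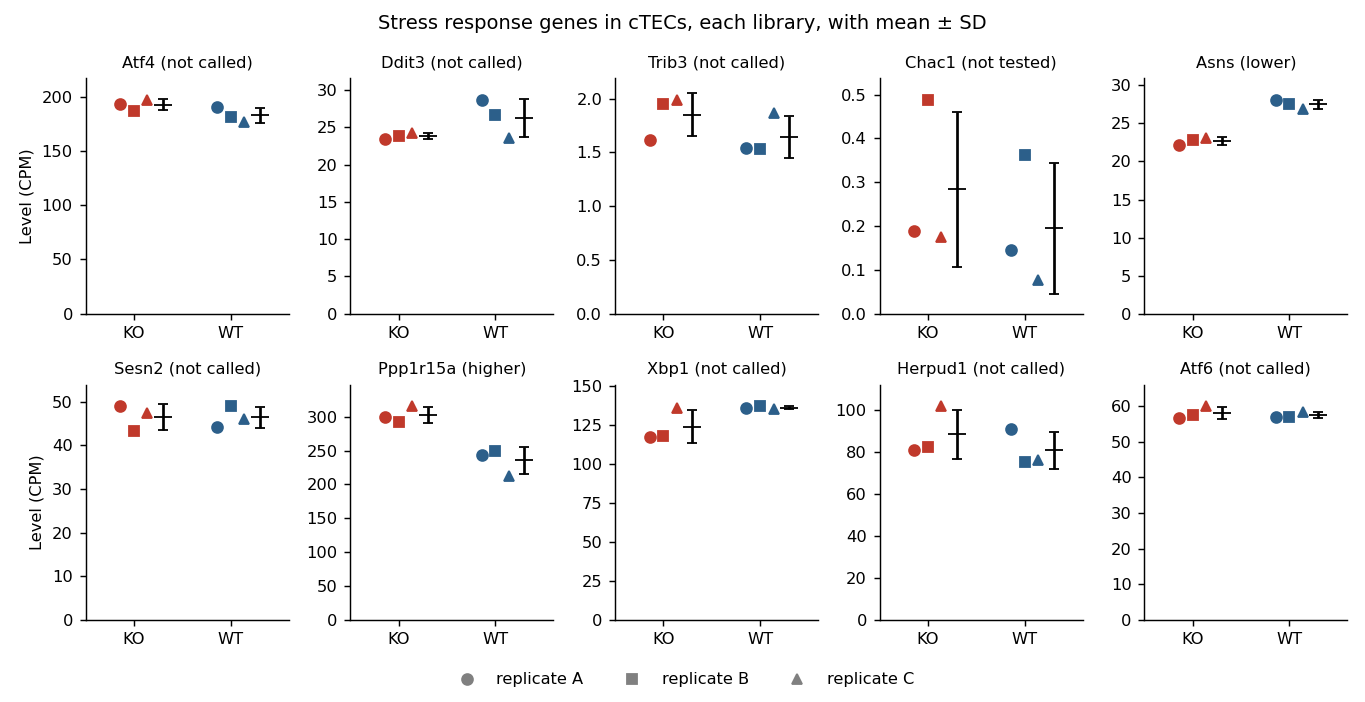
Level of each of the 10 genes in CPM (vertical axis, from 0) in the 3 KO libraries (red) and the 3 WT libraries (blue), with the replicate letter as the symbol and the mean ± SD beside the points. The genotypes are apart for Asns (22.1 to 23.1 CPM in KO, 26.9 to 28.1 CPM in WT) and for Ppp1r15a (292 to 316 CPM in KO, 213 to 250 CPM in WT), and overlap for the other 8.

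The gene at the head of the eIF2α arm is Atf4 (chr15:80255184-80257541, plus strand, GRCm38), which encodes the transcription factor whose translation the arm turns up. Atf4 had 193, 187 and 197 CPM in KO libraries A, B and C, against 190, 181 and 177 CPM in WT libraries A, B and C. The 2 genotypes overlapped, with KO library B below WT library A. The log2 fold change was 0.08 (SE 0.04, 95% interval -0.00 to 0.16) and was not called (edgeR quasi-likelihood test, adjusted p = 0.156). The interval of the KO to WT ratio was 1.0 to 1.11.

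Ddit3 (chr10:127290774-127296288, plus strand) encodes CHOP, the transcription factor downstream of ATF4 that is linked to cell death under lasting ER stress. It had 23.5, 23.9 and 24.3 CPM in KO libraries A, B and C, against 28.7, 26.6 and 23.6 CPM in WT libraries A, B and C. The KO libraries lay close together at the level of WT library C, the lowest of the WT libraries, so the genotypes overlapped. Its log2 fold change was -0.13 (SE 0.07, 95% interval -0.28 to 0.01; edgeR quasi-likelihood test, adjusted p = 0.177). Without WT library C the value was -0.21 and was called (adjusted p = 0.0474), while without WT library A it was -0.07 (adjusted p = 0.564), as it was with limma on log2(TPM + 1) (adjusted p = 0.525). Ddit3 overlaps Mars on the opposite strand, and unstranded counts gave the same side of the threshold.

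Trib3 (chr2:152337422-152344032, minus strand) encodes a pseudokinase that CHOP and ATF4 induce and that damps the response. It had 1.62, 1.95 and 1.99 CPM in KO libraries A, B and C, against 1.54, 1.53 and 1.87 CPM in WT libraries A, B and C, which overlapped. The log2 fold change of 0.17 had a wide interval (SE 0.21, -0.27 to 0.60; edgeR quasi-likelihood test, adjusted p = 0.614), and a ratio of KO to WT between 0.83 and 1.52 lies within it.

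Chac1 (chr2:119351229-119354381, plus strand), an ATF4 target whose enzyme breaks down glutathione, was close to the floor of detection. It had 7, 18 and 6 counts in KO libraries A, B and C, against 5, 13 and 3 counts in WT libraries A, B and C. Library B was the highest of each genotype, and the genotypes overlapped. Chac1 was not tested in the main comparison. With the filter on low counts lifted its log2 fold change was 0.54 (edgeR quasi-likelihood test, adjusted p = 0.62), and no difference was detectable at this depth.

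Asns (chr6:7675169-7693254, minus strand) encodes asparagine synthetase, which makes asparagine from aspartate and glutamine, and its gene is a standard readout of ATF4 under amino acid shortage. Asns had 22.1, 22.8 and 23.1 CPM in KO libraries A, B and C, against 28.1, 27.5 and 26.9 CPM in WT libraries A, B and C. Every KO library was below every WT library, and within a genotype the libraries differed little (KO mean 22.7 ± 0.497 CPM, WT mean 27.5 ± 0.593 CPM, SD over 3 libraries each). The level was 1.21-fold lower in KO, with a log2 fold change of -0.28 (SE 0.06, 95% interval -0.40 to -0.16; edgeR quasi-likelihood test, adjusted p = 1.78e-03). The call held in each of 16 alternative settings, and with each library left out the log2 fold change was -0.30 to -0.26.

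Sesn2 (chr4:132492032-132510501, minus strand) encodes a sestrin, a leucine sensor that restrains mTORC1 and is itself induced by ATF4. It had 48.9, 43.2 and 47.3 CPM in KO libraries A, B and C, against 44.2, 49.0 and 45.9 CPM in WT libraries A, B and C. The libraries of both genotypes were interleaved. The log2 fold change was 0.00 (95% interval -0.11 to 0.12; edgeR quasi-likelihood test, adjusted p = 0.975), so the ratio of KO to WT lay between 0.93 and 1.09.

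Ppp1r15a (chr7:45522916-45526268, minus strand) encodes GADD34, the phosphatase subunit that reverses the phosphorylation of eIF2α and so closes the loop. Ppp1r15a had 300, 292 and 316 CPM in KO libraries A, B and C, against 244, 250 and 213 CPM in WT libraries A, B and C. Every KO library was above every WT library, with WT library C the lowest of all. The level was 1.29-fold higher in KO, with a log2 fold change of 0.36 (SE 0.06, 95% interval 0.24 to 0.49; edgeR quasi-likelihood test, adjusted p = 1.17e-03). The call held in each of the 16 alternative settings, and with each library left out the log2 fold change was 0.29 to 0.41. Ppp1r15a overlaps Tulp2, which lies on the opposite strand.

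On the IRE1 arm stands Xbp1 (chr11:5520659-5525893, plus strand). Xbp1 had 117, 118 and 136 CPM in KO libraries A, B and C, against 136, 137 and 135 CPM in WT libraries A, B and C. KO libraries A and B lay below all WT libraries, while KO library C lay within them. The log2 fold change was -0.13 (SE 0.05, 95% interval -0.25 to -0.02), with an unadjusted p of 0.0244 that did not pass the correction (edgeR quasi-likelihood test, adjusted p = 0.0851). Whether it passed depended on the setting: without KO library C the value was -0.21 (adjusted p = 0.000961), and with no filter on low counts -0.14 (adjusted p = 0.00385). It was -0.09 without KO library A (adjusted p = 0.214) and with limma on log2(TPM + 1) (adjusted p = 0.408). Xbp1 is also high in plasma cells. Of 8 tested B cell and plasma cell markers 2 were called higher and 0 lower (summed 304 to 308 CPM in KO and 308 to 318 CPM in WT), and Sdc1, which epithelial cells also express, made up most of that sum, at 275 to 279 CPM in KO and 282 to 291 CPM in WT. Jchain averaged 2.51 CPM in KO, against 1.77 CPM in WT, and was not called (edgeR adjusted p = 0.466). It was highest in KO library C (3.83 CPM), the KO library in which Xbp1 was highest. Ms4a1 was at 0 in some libraries. The part of these cells in the level of Xbp1 was not tested.

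Herpud1 (chr8:94386438-94395377, plus strand) encodes an ER membrane protein that helps deliver misfolded proteins for degradation, and it is induced by all 3 arms. It had 81.2, 82.3 and 102 CPM in KO libraries A, B and C, against 91.1, 75.1 and 76.3 CPM in WT libraries A, B and C. The genotypes overlapped, since KO library C stood above the others of its genotype and WT library A above the others of its own. The ratio of KO to WT was 1.10 (95% interval 0.87 to 1.38; edgeR quasi-likelihood test, adjusted p = 0.542).

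Atf6 (chr1:170704674-170867771, minus strand), the sensor and transcription factor of the remaining arm, had 56.8, 57.7 and 60.1 CPM in KO libraries A, B and C, against 57.1, 57.0 and 58.5 CPM in WT libraries A, B and C. The genotypes overlapped within a narrow range. The log2 fold change was 0.02 (95% interval -0.07 to 0.10; edgeR quasi-likelihood test, adjusted p = 0.825), which leaves a KO to WT ratio between 0.95 and 1.07.

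**Figure D2:**
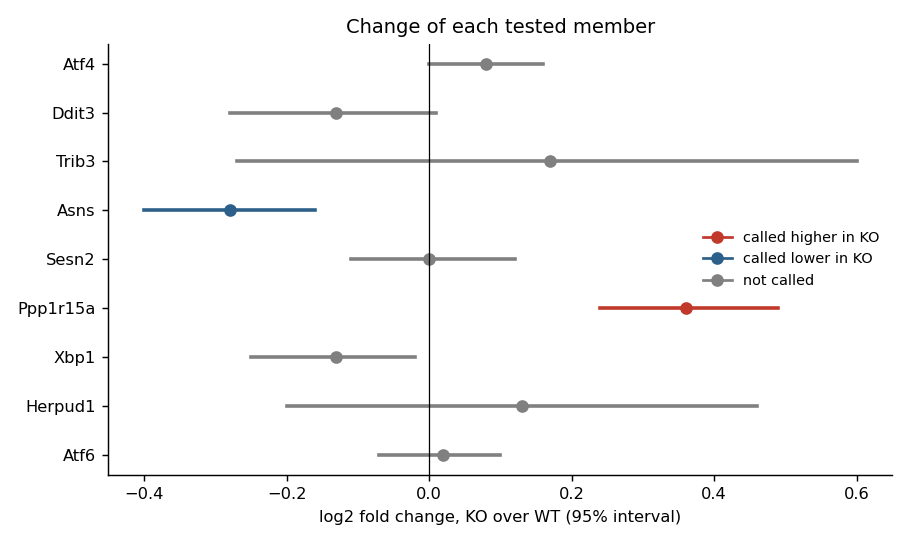
Log2 fold change of KO over WT (horizontal axis) for the 9 tested genes, as points with 95% intervals from the edgeR quasi-likelihood test. The interval lies above 0 for Ppp1r15a (0.24 to 0.49) and below 0 for Asns (-0.40 to -0.16), also below 0 for Xbp1, which did not pass the correction, and is widest for Trib3 (-0.27 to 0.60).

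Levels between genes were compared as TPM, the authors' abundance scaled for transcript length and library. Ppp1r15a was the most abundant, at 386 ± 14.9 TPM in KO and 301 ± 29.3 TPM in WT (SD, n = 3 each). Atf4 followed with 213 ± 4.49 TPM in KO and 198 ± 6.13 TPM in WT, then Xbp1 with 123 ± 10.8 TPM in KO and 130 ± 2.09 TPM in WT. Both lay among the top 7.37% of tested genes by TPM in either genotype. Below them came Herpud1 (93.1 ± 14.1 TPM in KO and 81.2 ± 9.61 TPM in WT) and Ddit3 (56.9 ± 0.826 TPM in KO and 59.9 ± 5.13 TPM in WT). Sesn2 and Asns were neighbours whose order differed by genotype. In KO, Sesn2 (22.21 to 25.22 TPM) stood above Asns (20.19 to 21.9 TPM) in every library, while in WT the ranges of Sesn2 (22.15 to 24.93 TPM) and Asns (24.71 to 26.21 TPM) overlapped. Atf6 had 14.3 ± 0.315 TPM in KO and 13.7 ± 0.236 TPM in WT, Trib3 had 1.81 ± 0.248 TPM in KO and 1.52 ± 0.121 TPM in WT, and Chac1 was the lowest (0.333 ± 0.241 TPM in KO and 0.233 ± 0.183 TPM in WT). No other neighbours in the order overlapped in either genotype. The ATF4 targets Trib3 and Chac1 were thus the least abundant of the 10 in both genotypes, and the feedback subunit Ppp1r15a the most.

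The promoters of the called genes, and of those with a searched motif before the start, are shown because the stress arms act through short DNA motifs. Windows from 250 bases before to 50 bases after the RefSeq start (GRCm38.p6) were found for 9 of the 10 genes, all but Atf6, and 4 motifs were searched on both strands. Printed are the bases from 250 to 16 before the start, read 5′ to 3′ on the gene's strand, with motif matches in capitals.
Asns (chr6:7693225-7693459, minus strand): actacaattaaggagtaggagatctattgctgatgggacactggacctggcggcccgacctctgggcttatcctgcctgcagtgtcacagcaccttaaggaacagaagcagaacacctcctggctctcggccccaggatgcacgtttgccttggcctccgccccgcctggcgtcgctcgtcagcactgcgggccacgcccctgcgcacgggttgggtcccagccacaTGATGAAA
Chac1 (chr2:119350992-119351226, plus strand): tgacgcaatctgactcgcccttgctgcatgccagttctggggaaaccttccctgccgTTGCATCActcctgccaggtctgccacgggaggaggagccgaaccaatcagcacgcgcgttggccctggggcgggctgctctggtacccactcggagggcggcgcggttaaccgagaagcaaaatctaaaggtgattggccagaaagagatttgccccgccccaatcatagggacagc
Herpud1 (chr8:94386179-94386413, plus strand): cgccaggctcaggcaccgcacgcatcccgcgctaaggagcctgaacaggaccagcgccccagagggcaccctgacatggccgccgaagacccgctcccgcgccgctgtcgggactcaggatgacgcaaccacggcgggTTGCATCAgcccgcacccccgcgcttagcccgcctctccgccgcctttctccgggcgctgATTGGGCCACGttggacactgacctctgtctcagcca
Ppp1r15a (chr7:45526284-45526518, minus strand): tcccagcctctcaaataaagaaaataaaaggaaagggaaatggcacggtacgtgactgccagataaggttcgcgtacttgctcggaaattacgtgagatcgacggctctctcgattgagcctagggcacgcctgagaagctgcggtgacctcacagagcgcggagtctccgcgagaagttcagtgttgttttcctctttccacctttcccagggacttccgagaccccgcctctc

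The core of the element bound by ATF4 with C/EBP proteins, TGATGNAA, was in the windows of 4 of the 9 genes and in 3.97% of 32851 RefSeq promoter windows. In Asns it was TGATGAAA on the gene's own strand, 23 bases before the RefSeq start, and the GENCODE gene model begins upstream of it. In Chac1 and Herpud1 it stood on the other strand, 193 and 112 bases before the start, and reads there as TTGCATCA. Trib3 held it 14 bases after the start, on the other strand. Herpud1 also held the ER stress element II, ATTGG and CCACG 1 base apart, 52 bases before the start, a pair found in 0.0365% of all windows. The ER stress element, CCAAT and CCACG 9 bases apart (0.119% of windows), and the unfolded protein response element TGACGTGG (0.676% of windows) were in 0 of the 9. Ppp1r15a held none of the 4 in this window. A match is a run of letters and not a measured binding site. Among the 4 genes with the core, Asns was called lower, Trib3 and Herpud1 were not called and Chac1 was not tested.

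Among the sensors and the eIF2 machinery the share of called genes, 15.8%, was below the 23.6% of all tested genes. Of 19 genes for stress kinases, eIF2 and eIF2B subunits and membrane-bound factors, 0 were called higher and 3 lower, with a median log2 fold change of -0.02 against -0.001 over all tested genes. The 3 were the eIF2B subunits Eif2b4 (1.14-fold lower; edgeR adjusted p = 0.028) and Eif2b5 (1.08-fold lower, adjusted p = 0.0469) and Creb3l2, an ER-bound transcription factor (1.09-fold lower, adjusted p = 0.0206). The count fell to 0 without KO library B or WT library C and with limma on log2(TPM + 1), and to 1 without WT library A or B.

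Other transcription factors and stress targets of the ATF4 arm were called in both directions. Of 15 tested, 4 were called higher and 2 lower, 40.0% against 23.6% of all tested genes, with a median log2 fold change of 0.14. Nupr1, a stress-induced chromatin protein, had 21.8, 26.5 and 32.5 CPM in KO libraries A, B and C, against 9.54, 11 and 9.67 CPM in WT libraries A, B and C. All KO libraries stood above all WT libraries, 2.68-fold higher (log2 fold change 1.42, SE 0.14; edgeR adjusted p = 2.39e-04). Cebpb, a C/EBP partner of ATF4, was 1.19-fold higher (adjusted p = 1.38e-03) and Cebpg, another, 1.10-fold higher (adjusted p = 0.0192). Sqstm1, the autophagy receptor p62, was 1.09-fold lower (adjusted p = 0.0184). The count of higher genes was 2 without KO library A or WT library A, and that of lower genes was 0 or 1 in 10 of the alternatives. Atf3, named here because it is both an ATF4 target and an early gene, had 1120, 1170 and 1210 CPM in KO libraries A, B and C, against 844, 958 and 695 CPM in WT libraries A, B and C. Its genotypes did not overlap, but it missed the threshold (log2 fold change 0.49, SE 0.13; edgeR adjusted p = 0.0567), and it passed without WT library C (0.37, adjusted p = 0.000549) and with DESeq2 (0.49, adjusted p = 0.00256).

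The amino acid genes regulated by ATF4 split in both directions. Of 19 tested, 6 were called higher and 4 lower, which is 52.6% against 23.6% of all tested genes, with a median log2 fold change of 0.08. Psat1, of the serine synthesis pathway, had 296, 306 and 296 CPM in KO libraries A, B and C, against 397, 393 and 399 CPM in WT libraries A, B and C, with no overlap and a level 1.32-fold lower in KO (log2 fold change -0.40, SE 0.03; edgeR adjusted p = 6.35e-07). Phgdh, the first enzyme of that pathway, was 1.18-fold lower (adjusted p = 1.06e-04), and Cth, which makes cysteine from cystathionine, was 1.49-fold lower (adjusted p = 1.46e-05). Slc38a2, a carrier of neutral amino acids, was 1.19-fold higher (adjusted p = 1.51e-04). The other 6 called genes, named after their values were seen, were Gpt2, an alanine transaminase (1.2-fold lower), and, all higher, the cystine carrier Slc7a11 (1.64-fold), the glutamine carrier Slc1a5 (1.49-fold), the proline synthesis enzyme Aldh18a1 (1.32-fold), the mitochondrial serine hydroxymethyltransferase Shmt2 (1.18-fold) and the glycine carrier Slc6a9 (1.14-fold). Slc6a9 missed the threshold in 7 of the 16 alternatives. Other carriers on the list were not called, with log2 fold changes of -0.10 for Slc1a4, -0.00 for Slc3a2, 0.04 for Slc7a5 and 0.08 for Slc7a1. Slc7a11 had 92.6, 72.3 and 73.5 CPM in KO libraries A, B and C, against 48.5, 47.8 and 49.1 CPM in WT libraries A, B and C, and KO library A stood apart from the other KO libraries.

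Of 13 cytosolic tRNA charging enzymes, many of which ATF4 also induces, 0 were called higher and 3 lower, and that share, 23.1%, was near the 23.6% of all tested genes. All 13 had a log2 fold change below 0 (median -0.08). Vars, which charges valine tRNA, was 1.2-fold lower (edgeR adjusted p = 1.32e-04), Eprs, for glutamate and proline, 1.12-fold lower (adjusted p = 3.66e-03), and Wars, for tryptophan, 1.12-fold lower (adjusted p = 9.09e-03). The summed level was 1290 to 1320 CPM in KO and 1430 CPM in each WT library. With limma on log2(TPM + 1) 1 of the 13 was called lower.

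**Figure D3:**
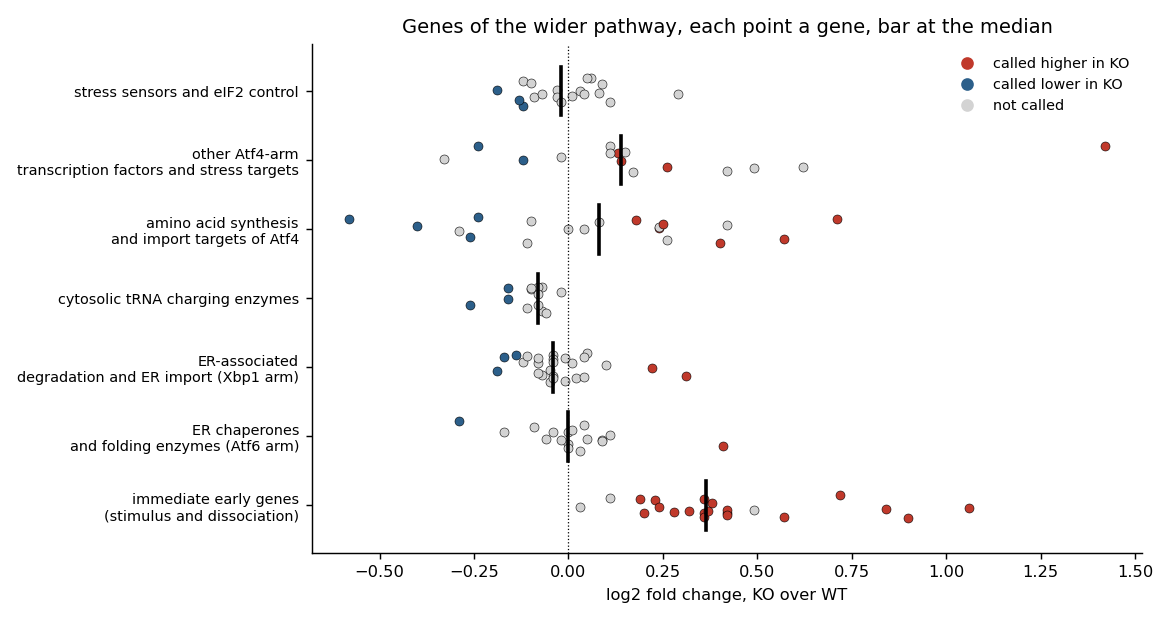
Log2 fold change of KO over WT (horizontal axis) for each tested gene of 7 lists around the 10 members (rows), with called genes in red (higher in KO) or blue (lower in KO) and a bar at the median of each list. The amino acid list spreads to both sides with a median of 0.08, the ER lists lie around 0 (medians -0.04 and 0.00), and all 22 immediate early genes lie above 0 with a median of 0.37.

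The targets of XBP1 and ATF6 had median changes near 0, and 19.2% of the degradation and import genes and 11.8% of the chaperones were called, against 23.6% of all tested genes. Of 26 genes of ER-associated degradation and ER import, 2 were called higher and 3 lower, with a median log2 fold change of -0.04. Dnajb9, a co-chaperone of BiP that restrains IRE1, was 1.24-fold higher (edgeR adjusted p = 2.62e-04) and Syvn1, the ubiquitin ligase HRD1, 1.16-fold higher (adjusted p = 7.72e-03). Sec24d, a coat component of ER exit vesicles, was 1.14-fold lower (adjusted p = 7.42e-04), Derl1, of the retrotranslocation channel, 1.10-fold lower (adjusted p = 7.65e-03) and Sec61b, of the import channel, 1.12-fold lower (adjusted p = 0.0364). Without WT library C the higher count was 1, and with limma on log2(TPM + 1) the lower count was 0. Of 17 ER chaperones and folding enzymes, 1 was called higher and 1 lower, with a median of 0.00. The oxidase gene Ero1lb was 1.32-fold higher (adjusted p = 1.73e-04) and Sil1, the exchange factor of BiP, 1.22-fold lower (adjusted p = 1.69e-04). Without KO library C 2 of the 17 were called lower. Hspa5, which encodes BiP and is the classic target of ATF6, had 724, 768 and 889 CPM in KO libraries A, B and C, against 798, 719 and 714 CPM in WT libraries A, B and C. The genotypes overlapped (log2 fold change 0.09, SE 0.08; edgeR adjusted p = 0.485), and the interval of the ratio was 0.93 to 1.23.

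The variation of Herpud1 between libraries of one genotype recurred in the ER chaperones, in genes chosen for display after their values were seen. Hspa5 was highest in KO library C and next in WT library A, as Herpud1 was. Hyou1, a large ER chaperone, had 155, 160 and 189 CPM in KO libraries A, B and C, against 175, 165 and 163 CPM in WT libraries A, B and C. Manf, a secreted ER stress protein, had 47.2, 48.8 and 57.8 CPM in KO libraries A, B and C, against 53.0, 46.8 and 45.2 CPM in WT libraries A, B and C. All 4 genes were thus highest in KO library C and second in WT library A. Creld2, an ER folding factor, had 45.1 CPM in KO library C, against 47.1 CPM in WT library A, its highest. Summed over the 17 chaperones, the level was 4620, 4800 and 5210 CPM in KO libraries A, B and C, against 5090, 4710 and 4800 CPM in WT libraries A, B and C. The highest libraries of these genes thus came from both genotypes, and the KO libraries spanned the wider range.

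The immediate early genes, like Ppp1r15a, were higher in KO. They are induced within minutes of a stimulus or of tissue dissociation. Of 22 such genes 19 were called higher and 0 lower in KO, 86.4% against 23.6% of all tested genes, and all 22 had a log2 fold change above 0 (median 0.37). Their summed level was 26200, 28300 and 27600 CPM in KO libraries A, B and C, against 22300, 23400 and 20100 CPM in WT libraries A, B and C. As for Ppp1r15a, every KO library was above every WT library and WT library C was the lowest, but among the KO libraries Ppp1r15a was lowest in B, where the early genes were highest. Klf6 was 1.48-fold higher (edgeR adjusted p = 3.24e-07), Ier5 1.30-fold (adjusted p = 5.34e-06), Egr2 1.79-fold (adjusted p = 1.62e-05) and Nr4a1 1.65-fold (adjusted p = 1.20e-04). The part of tissue handling in the level of Ppp1r15a was not tested.

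Likeness to each called member was measured over the 6 libraries as the root mean square difference in log2 CPM after subtracting each gene's mean, among 11283 genes. Nearest to Ppp1r15a were Klf4 (0.03), a transcription factor on the early gene list, Foxq1 (0.04), a forkhead factor, and Btg2 (0.042), an antiproliferative gene also on that list. Klf4 averaged 609 CPM in KO, against 455 CPM in WT, a log2 fold change of 0.42 (edgeR adjusted p = 3.78e-04). Nearest to Asns were Ccdc8 (0.014), 1110012L19Rik (0.019) and Ndufb9 (0.026), the last a subunit of respiratory complex I. These 3 lay at log2 fold changes of -0.27, -0.29 and -0.27. None of the 6 is on the ATF4 lists, but those hold few of the 11283 genes compared, so nothing is read from that. Genes near a member by this measure share its genotype difference, and a common regulator was not tested.

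**Figure D4:**
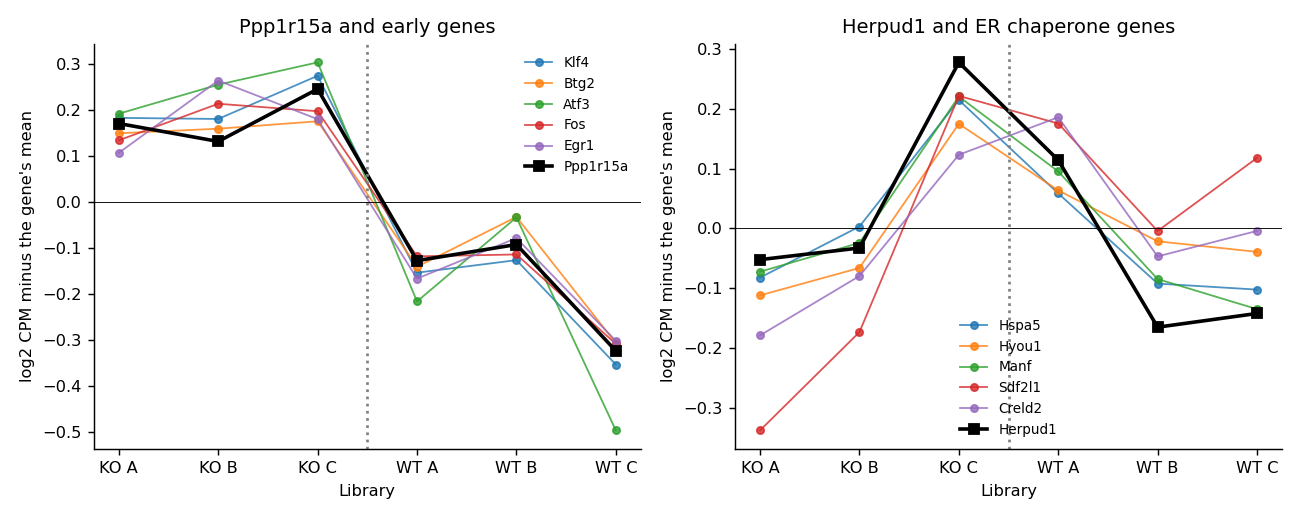
Log2 CPM of each gene minus its own mean over the 6 libraries (vertical axis) by library (horizontal axis, KO libraries left of the dotted line and WT libraries right), for Ppp1r15a with 5 early genes and for Herpud1 with 5 ER chaperone genes. Ppp1r15a and the early genes lie above 0 in the KO libraries and lowest in WT library C, while Herpud1 peaks in KO library C with WT library A next.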

How the data were processed

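RNA of 6 cTEC libraries was compared. The tools named in the submitters' processing notes are bcl2fastq 2.17, STAR 2.5.1b and RSEM 1.2.28. The notes name build GRCh38, a human build, although the identifiers are mouse Ensembl ones, so the build used is uncertain. Symbols and positions come from GENCODE M21 (GRCm38), in which 50376 of 50600 identifiers (99.56%) matched by identifier, and 1 gene model per symbol whose identifier is in the files was used.

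The deposited counts are raw read counts per gene for each strand setting, and the opposite-strand column was used because it held 95.47% to 95.7% of the counts of both strands. Rows naming no gene held 18.43% to 19.81% and were left out. The deposited expected counts were estimated by the authors with RSEM, and were rounded for an alternative. The deposited TPM values, also from RSEM, were used for levels between genes and in alternatives.

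Genes passing filterByExpr were tested with edgeR 4.0.16 (R 4.3.3, quasi-likelihood, robust, TMM factors 0.9937 to 1.0118, no block), with Benjamini-Hochberg adjustment over all genes tested. Intervals cover 95% and, like each SE, were derived from the F statistic, which is approximate. CPM used gene counts as library size, scaled by the TMM factors. No list was given a test of its own. The method was tested on simulated data. Members and lists were chosen with earlier results of these data known. Named genes were the 10 members, Psmb11, up to 4 called genes of each list by increasing p (or 2 by CPM if there were none), and the 3 genes most like each called member. Alternatives were DESeq2 1.42.0, a filter at a mean of 5 CPM or none, RLE normalization, unstranded counts, expected counts, limma 3.58.1 on log2(TPM + 1) and log2(TPM + 0.1) for genes of at least 1 TPM in 3 libraries, a replicate block and each library left out. A non-robust fit was added after seeing the data. Promoters are RefSeq sequences of GRCm38.p6. Figures used matplotlib 3.10.9 in Python 3.11.15.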

Additional observations from a re-analysis of the deposited data

How the results depend on the processing

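Asns and Ppp1r15a kept their direction and their side of the threshold in all 16 alternatives, and Atf4, Trib3, Sesn2, Herpud1 and Atf6 were not called in any. Ddit3 and Xbp1 changed sides without a library or a filter as given above, and Xbp1 also with the replicate letter as a block (-0.14, edgeR adjusted p = 0.0418), which among the other genes named changed only the call of Eif2b5 (adjusted p = 0.0535). The count of called members was 2, or 3 with the replicate block, with no low count filter and without KO library C or WT library C. Over all genes 3989 were called, against 1996 with limma on log2(TPM + 1), 1938 with limma on log2(TPM + 0.1), 4097 with the replicate block, and 2715 to 3661 with each library left out. The cause of the lower counts with limma was not tested. Without WT library C the genes called lower numbered 1239, against 1876 with all libraries. Deviations of KO and WT libraries with the same letter correlated at 0.04, 0.085 and -0.055 over 11295 genes, and those with different letters at -0.117 to 0.072. No pairing by letter was visible, but correlations over 3 libraries per genotype cannot settle whether there was any. Of the context genes called in the main comparison, Eif2b5, Atf5, Eif4ebp1 and Sec61b missed the threshold in 10 or more alternatives. Depth limits Chac1 and Trib3, whose libraries held few counts.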
